A study of Mus musculus with 10 samples.

Results

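Desmosomes are the spot-like junctions that hold epithelial cells together, and the transcripts of 8 of their genes were followed here in sweat glands and in the epidermis of the mouse paw. The genes were Dsg2, Dsc1, Dsc2, Dsc3, Jup, Pkp1, Dsp and Perp. They were measured by the 16 probe sets annotated to one of these symbols alone, of 22626 probe sets that were not controls, and they make up 8 of the 12393 genes with such a probe set. The 10 arrays came from 5 cell populations of mouse paw pads, purified by fluorescence-activated cell sorting, with 2 arrays in each population labelled as biological replicates 1 and 2. All mice were wild-type females of the CD1 background, with no treatment named. The secretory coil gave a myoepithelial and a luminal population, the straight duct gave a basal and a suprabasal population, and the fifth was palmoplantar epidermis, the thick skin of the sole. The labels give neither the antigens used for sorting nor the age of the mice, and do not say how many animals went into an array.

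In a desmosome, the cadherins of the desmoglein and desmocollin families span the gap between neighbouring cells. Inside the cell their tails bind the armadillo proteins plakoglobin and the plakophilins, which in turn hold desmoplakin, the plakin that anchors keratin filaments. In stratified epithelia such as epidermis the isoforms are known to change between layers, with desmoglein 2 and desmocollin 2 typical of simple epithelia and of deep layers, and desmocollin 1 and plakophilin 1 typical of upper, differentiating layers. The myoepithelial cells of the coil surround the luminal cells and contract, and the basal cells of the duct surround its suprabasal cells, so that each tube has an outer and an inner layer.

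The deposited value is the MAS5 signal of a probe set on a linear scale, scaled by the authors to the same trimmed mean on every array. Signals of different probe sets are not compared with each other. The 40th percentile of an array, between 33.5 and 60.3 over the 10 arrays, served as a limit below which a signal was not read as a level. By this limit 6 genes were measured on all 10 arrays. Dsc1 lay above it on the 2 epidermis arrays only, and Dsc3 on 4 arrays, those of epidermis and duct basal cells. Of the 8 genes, 8 passed the filter for testing, Dsc1 through epidermis alone and Dsc3 through epidermis and duct basal cells alone.

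In 4 of the 5 populations the markers of the label summed highest on its own arrays. The summed signal of Krt8, Krt18, Krt19 and Aqp5 was 60340 and 74160 on the luminal arrays, that of Acta2, Myh11 and Cnn1 was 67950 and 97780 on the myoepithelial arrays, that of Krt5, Krt14 and Trp63 was 63740 and 62750 on the duct basal arrays, and that of Krt1, Krt10, Lor, Krtdap and Flg was 105800 and 103500 on the epidermis arrays. The duct basal sum came mostly from Krt5 and Krt14. Trp63 was higher on the myoepithelial arrays (3806.9 and 4737.8) than on the duct basal arrays (3631.4 and 3004.3). The duct suprabasal list did not set its population apart. Scnn1b, Scnn1g and Krt6a summed to 14500 and 9178 there and to 13650 and 15640 in epidermis, most of it from Krt6a, and the sodium channel genes Scnn1b (538.5 and 391) and Scnn1g (902.5 and 680.2) overlapped with luminal cells (419.2 and 479.1, and 494.7 and 746.5). The 2 duct suprabasal arrays differed most, with a correlation of 0.907 between their log2 signals over all tested genes, against 0.963 to 0.981 in the other populations. Luminal markers summed to 33890 on duct suprabasal array 1 and 15160 on array 2. The 6 fibroblast markers summed to 16260 and 86060 there, and the 6 endothelial markers to 2535 and 10860. Of both these lists 6 of 6 were above the limit on both arrays. Fibroblast markers were not particular to these arrays. They summed to 23950 and 20170 on the duct basal arrays, mostly from Dcn, and to 6151 on luminal array 2. On these 3 arrays too, 6 of 6 were above the limit. On the myoepithelial arrays they summed to 12860 and 16290, with 3 of 6 above it. Epidermis markers summed to 22730 and 43390 on the duct basal arrays and to 20850 and 24550 on the duct suprabasal arrays. On the coil arrays they summed to between 721 and 1353. Their part in the differences between duct and coil given below was not tested. Immune markers summed to 4562 and 6377 on the myoepithelial arrays and to 832.3 on luminal array 2, with 5 of 5 above the limit on each. Luminal markers summed to 17060 on myoepithelial array 1 and to 7787 on array 2. No Merkel cell marker was above it on any array. In these sorted pools, fewer cells of a type and less RNA per cell cannot be told apart.

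The proximal promoters of 2 of the 8 genes, Jup and Dsp, were among the RefSeq sequences at hand (build GRCm38.p6). Jup and Dsp encode the plaque proteins plakoglobin and desmoplakin. Their ranges between populations were 1.89 and 1.59 on the log2 scale, the smallest among the genes measured on all arrays. The range of Dsc3 was 1.91, but Dsc3 was below the limit in luminal cells and was not ranked. These 2 promoters are shown because no other promoter of the 8 genes was at hand, and a link to expression was not tested. Each runs from 250 bases before to 50 bases after the annotated start, written along the strand of the gene. Capitals mark the motif GGGCGG, the core of a GC box, on either strand, where it reads GGGCGG or CCGCCC. Jup lies on the minus strand at chr11:100397741-100398040 and Dsp on the plus strand at chr13:38151044-38151343.
Jup: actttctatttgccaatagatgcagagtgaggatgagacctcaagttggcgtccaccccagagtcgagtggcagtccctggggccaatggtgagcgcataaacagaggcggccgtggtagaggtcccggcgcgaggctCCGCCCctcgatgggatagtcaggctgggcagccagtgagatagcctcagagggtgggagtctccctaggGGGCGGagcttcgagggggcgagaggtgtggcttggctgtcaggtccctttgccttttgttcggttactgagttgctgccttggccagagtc
Dsp: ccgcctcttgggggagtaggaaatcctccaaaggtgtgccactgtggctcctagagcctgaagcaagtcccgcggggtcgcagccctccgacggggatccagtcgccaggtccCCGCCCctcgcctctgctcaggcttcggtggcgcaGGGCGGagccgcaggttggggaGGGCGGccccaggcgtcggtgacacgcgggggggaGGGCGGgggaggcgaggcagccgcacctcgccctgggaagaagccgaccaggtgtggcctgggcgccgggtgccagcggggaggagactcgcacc
The Jup promoter held 2 matches in 300 bases of which 60.7% were G or C, and the Dsp promoter held 4 matches at 73% G or C. At least 1 match was present in 35.7% of 32851 promoters of the same length. Neither window held TATAAA, the TATA box, on either strand, while 13.6% of all promoters did. Neither held TGANTCA, the AP-1 motif, found in 7.81% of promoters. Neither held AACCNGTT, the grainyhead motif, found in 2.09% of them.

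Of the 6 genes measured on all arrays, Jup, Pkp1, Dsp and Perp had their highest mean signal in epidermis. Of the same 6, 4 were lowest in the luminal cells of the coil. The mean was highest in epidermis for 6 of the 8 genes (Dsc1, Dsc3, Jup, Pkp1, Dsp and Perp), a count to which Dsc1 and Dsc3 add no support. For Dsc3, Dsp and Perp the step down to the next population, duct basal cells, did not pass the test (log2 differences of 0.54, 0.13 and 0.32). The mean was lowest in luminal cells for Dsc2, Pkp1, Dsp and Perp. The share of all tested genes with the highest mean in epidermis or the lowest in luminal cells was not counted, so these counts are a description. Dsc1 and Dsc3 were below the limit in luminal and in other populations, so no lowest population was read for them. Dsg2 ran the other way, highest in myoepithelial cells and lowest in epidermis, and Dsc2 was highest in the suprabasal duct. In an F test of limma across all populations 65.7% of all tested genes passed an adjusted p of 0.05. So did the 6 genes measured on all arrays, with adjusted p-values from 4.91e-06 for Pkp1 to 0.00151 for Dsg2, and Dsc3 at 0.0245. Dsc1 was tested only because of its epidermis signal, and Dsc3 only because of its epidermis and duct basal signals. Passes of Dsc1 and Dsc3 are therefore no support. Differences below are on the log2(signal + 12) scale, which understates the change of low signals, and come from the same limma fit over all genes, with the standard error (SE).

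**Figure D1:**
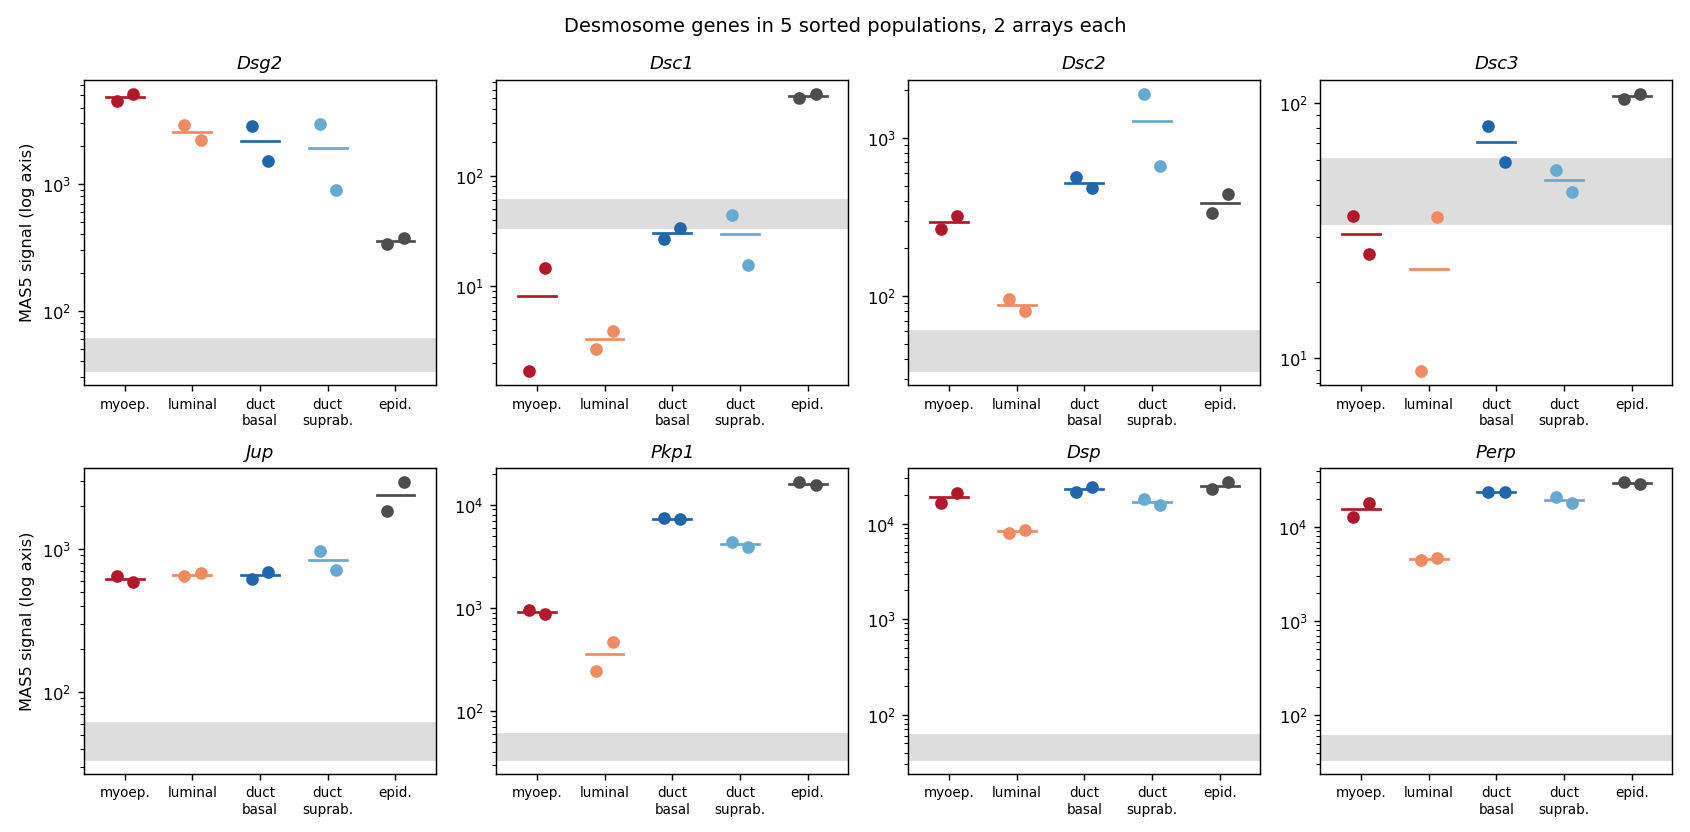
MAS5 signal (log axis) of the 8 desmosome genes on each of the 10 arrays, grouped by population. Points are arrays, lines are the mean of the 2 arrays, and the grey band spans the 40th percentiles of the arrays, 33.5 to 60.3. Dsg2 is lowest in epidermis, while Dsc1 rises above the band in epidermis alone and Pkp1 falls from epidermis through duct to coil.

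Dsg2 encodes desmoglein 2, the desmoglein of simple epithelia. Its signal was 4479.5 and 5153.5 on the myoepithelial arrays, 2902.6 and 2205.1 on the luminal arrays, 2881.2 and 1513.7 on the duct basal arrays, 2948.2 and 899.1 on the duct suprabasal arrays, and 335.8 and 376.5 on the epidermis arrays. Both epidermis arrays were below all 8 others, and the myoepithelial arrays were above all others. In the order of the means, myoepithelial, luminal, duct basal, duct suprabasal and epidermis, the last step was the only one between neighbours to pass the test, with a difference of 2.16 (SE 0.49, adjusted p = 0.0063). The suprabasal arrays, on either side of the luminal and duct basal arrays, were the farthest apart, 1.70 log2 units, with array 2 the lower.

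Dsc1 encodes desmocollin 1, a cadherin of the upper epidermal layers. Its signal was 505.5 and 551.1 in epidermis. On the 8 other arrays it was between 1.7 and 44.3, under the limit of its array each time, so no order was read among the coil and duct populations. The size of its log2 difference from epidermis depends on the constant added before the logarithm: for luminal cells it was -5.14 with 12 added and ranged from -6.96 to -3.51 over the alternatives.

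Dsc2 encodes desmocollin 2, the most widely expressed desmocollin. Its signal was 265.1 and 320.9 in myoepithelial cells, 95.7 and 80.2 in luminal cells, 562 and 480.9 in duct basal cells, 1905.8 and 660.7 in duct suprabasal cells, and 336 and 439.8 in epidermis. The luminal arrays were below all others and the suprabasal arrays above all others, but the 2 suprabasal arrays were 1.51 log2 units apart. Between neighbours in this order, only the step from myoepithelial to luminal cells passed. Dsc3, the desmocollin of basal and lower spinous keratinocytes, was above the limit in epidermis and duct basal cells only. It read 103.6 and 109.2 in epidermis and 81.5 and 59 in duct basal cells, and 55 and 45 in duct suprabasal cells, 36 and 25.6 in myoepithelial cells and 8.9 and 35.7 in luminal cells, the last 3 populations below the limit. No step between neighbours passed for Dsc3.

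Jup encodes plakoglobin, the armadillo protein that binds cadherin tails in desmosomes and also in adherens junctions. It read 1846.3 and 2920.2 in epidermis and lay between 588.3 and 965.8 on the 8 other arrays. Epidermis was apart from every other array. The step from epidermis to the next population, duct suprabasal at 965.8 and 717.3, was 1.47 (SE 0.25, adjusted p = 0.00143). The 4 coil and duct populations followed each other closely, with steps of 0.33, 0.02 and 0.07 that did not pass.

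Pkp1 encodes plakophilin 1, which strengthens the plaque of stratified epithelia by binding desmoplakin and keratins. Its signal was 16499.6 and 15381.2 in epidermis, 7447.8 and 7254.7 in duct basal cells, 4346.3 and 3933.4 in duct suprabasal cells, 951.3 and 867.4 in myoepithelial cells, and 241.1 and 467.2 in luminal cells. The 5 populations did not overlap at all. All steps between neighbours passed except that from duct basal to duct suprabasal cells (0.83, SE 0.27, adjusted p = 0.0635). From luminal cells to epidermis the span was 5.52, the widest among the genes measured on all arrays. The Dsc1 span of 5.14 was not ranked against it, since Dsc1 was below the limit in luminal cells. For luminal minus epidermis, Dsc1 ranged from -6.96 to -3.51 over the alternatives and Pkp1 from -5.98 to -5.06.

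Dsp encodes desmoplakin, the obligate link to keratin. Its signal was 23047.9 and 27128.2 in epidermis, 21304.9 and 24517.7 on the duct basal arrays, 16461.7 and 21153.2 in myoepithelial cells, 18094.1 and 15709.9 in duct suprabasal cells, and 7954.4 and 8639.8 in luminal cells. The luminal arrays were below the 8 others. Epidermis and duct basal arrays overlapped, as did myoepithelial and duct suprabasal arrays, and the latter 4 were below the former 4. Perp, a tetraspan membrane protein that desmosomes of stratified epithelia need and a known target of p63, read 30007.7 and 29032.8 in epidermis, 23426.9 and 23933.4 in duct basal cells, 21065.1 and 18081.9 in duct suprabasal cells, 12957.2 and 18210.2 in myoepithelial cells, and 4517.5 and 4742.9 in luminal cells. Here too the luminal arrays stood apart at the bottom, and the only step between neighbours that passed was the last, for Dsp from duct suprabasal to luminal cells and for Perp from myoepithelial to luminal cells.

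Between the layers of the coil, 4 of the 8 genes were higher in the outer, myoepithelial cells than in the luminal cells and 0 were lower. The background in this comparison was 16.5% of tested genes higher and 14.5% lower, and the median difference of the 8 genes was 1.05 against 0.08 over all tested genes. Perp was higher by 1.73 (SE 0.20, adjusted p = 0.000504), a 3.31-fold difference of signal + 12. Dsc2 was higher by 1.61 (SE 0.42, adjusted p = 0.0178), Pkp1 by 1.40 (SE 0.27, adjusted p = 0.00438) and Dsp by 1.17 (SE 0.20, adjusted p = 0.00293). For each of the 4 genes both myoepithelial arrays were above both luminal arrays. Dsg2 had a difference of 0.92 (SE 0.49, adjusted p = 0.186) and Jup of -0.09 (SE 0.25, adjusted p = 0.814), and Dsc1 and Dsc3 were below the limit in both layers. The Dsc2 call was lost without myoepithelial array 1 (adjusted p = 0.0502), myoepithelial array 2 (0.103), luminal array 1 (0.0628) or luminal array 2 (0.0965), and with the mean of its probe sets (0.95, adjusted p = 0.103). Without either duct suprabasal array Dsg2 passed (0.92, adjusted p = 0.0306 each time).

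Between the layers of the duct, 0 of the 8 genes passed in limma after adjustment, and 2 had an unadjusted p under 0.05. These were Dsc2 at -1.09 (SE 0.42, adjusted p = 0.107), lower in basal cells, and Pkp1 at 0.83 (adjusted p = 0.0635), higher in basal cells. Among all tested genes 7.97% were higher in duct basal cells and 8.39% lower. For both genes the 2 basal arrays were on 1 side of the 2 suprabasal arrays. Dsp (0.44, SE 0.20), Perp (0.28, SE 0.20), Dsg2 (0.36, SE 0.49) and Jup (-0.35, SE 0.25) had 95% intervals that included 0. Some of these values depended on single arrays. Dsc2 was at -1.85 (adjusted p = 0.00313) without suprabasal array 2, the one with the higher fibroblast and endothelial markers, and at -0.34 (adjusted p = 0.477) without array 1. Dsg2 turned from 1.21 (adjusted p = 0.0494) without array 1 to -0.49 (adjusted p = 0.339) without array 2. Pkp1 kept its value of 0.83 and passed without luminal array 1 (0.0209) or 2 (0.0211). The part of the marker differences in these values was not tested.

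The layer difference of the coil was then set against that of the duct, as an interaction in the same model. It passed for 2 of 8 genes, both with a larger outer minus inner difference in the coil, while 10% of all tested genes passed in this direction and 5.94% in the other. Dsc2 was higher in the outer layer of the coil and had the opposite sign in the duct, an interaction of 2.70 (SE 0.59, adjusted p = 0.017). Perp differed by 1.73 in the coil and 0.28 in the duct, an interaction of 1.45 (SE 0.29, adjusted p = 0.0118). The other 6 genes had interactions from 0.03 for Dsc3 to 0.73 for Dsp (SE 0.29, adjusted p = 0.116). The Dsc2 interaction missed the threshold without myoepithelial array 2 (adjusted p = 0.0635), luminal array 2 (0.0629) or duct basal array 2 (0.0664), and with the mean of its probe sets (1.90, adjusted p = 0.0508).

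**Figure D2:**
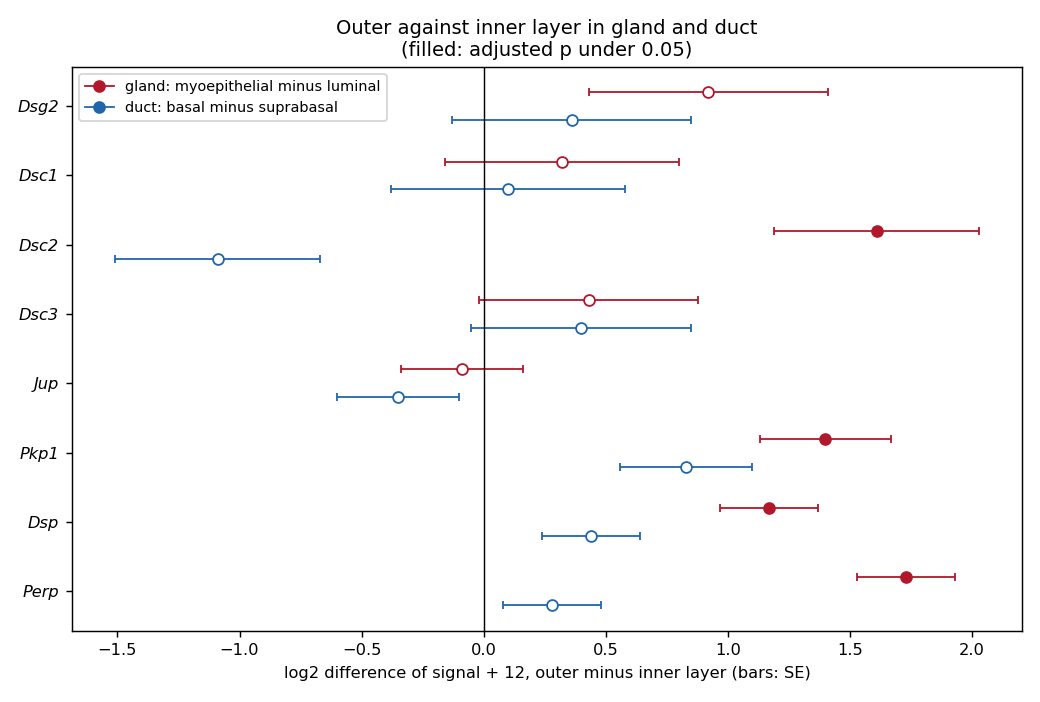
Log2 difference of signal + 12 between the outer and the inner layer, in the coil (red, myoepithelial minus luminal) and in the duct (blue, basal minus suprabasal), for each desmosome gene. Points are limma estimates, bars are the SE, and filled points have an adjusted p under 0.05. Dsc2 lies at 1.61 in the coil and -1.09 in the duct, and Dsc2, Pkp1, Dsp and Perp are the filled points, all in the coil.

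The 2 outer layers differed at 1 desmosome gene. Pkp1 was lower in myoepithelial than in duct basal cells by 8-fold, a log2 difference of -3.00 (SE 0.27, adjusted p = 7.84e-05). In this comparison 12% of tested genes were higher in myoepithelial cells and 12.3% lower. Perp (-0.62, SE 0.20, adjusted p = 0.053), Dsg2 (1.20, SE 0.49, adjusted p = 0.109) and Dsc2 (-0.81, SE 0.42, adjusted p = 0.198) did not pass, while Jup was at -0.07 and Dsp at -0.29. These calls rested on the arrays included: Perp passed without myoepithelial array 2 (-0.87, adjusted p = 0.03) but was at -0.38 without array 1 (adjusted p = 0.262), and Perp, Dsg2 and Dsc2 passed without duct suprabasal array 1 or without array 2, with adjusted p-values from 0.012 to 0.0479.

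The 2 inner layers differed at 4 desmosome genes, all lower in the luminal cells of the coil than in the suprabasal cells of the duct, where 4.95% of tested genes were higher and 10.2% lower. Pkp1 was lower by 11.9-fold (-3.57, SE 0.27, adjusted p = 0.000155) and Dsc2 by 11.4-fold (-3.51, SE 0.42, adjusted p = 0.0014). Perp was at -2.07 (SE 0.20, adjusted p = 0.000843) and Dsp at -1.02 (SE 0.20, adjusted p = 0.0119). All 4 had both luminal arrays below both suprabasal arrays, and the median of the 8 genes was -1.19 against -0.06 over all tested genes. This median includes Dsc1 and Dsc3, which were below the limit in both populations. Dsg2 was at 0.63 (SE 0.49) and Jup at -0.33 (SE 0.25), neither past the threshold. Dsp lost its call without luminal array 1 (-0.96, adjusted p = 0.0799) and with the mean of its probe sets (-0.72, adjusted p = 0.0574). In a fit of the 4 arrays alone Dsp (0.108), Dsc2 (0.0691) and Perp (0.0536) missed the threshold. Dsg2 passed without duct suprabasal array 1 (1.48, adjusted p = 0.0153) and turned to -0.22 without array 2 (adjusted p = 0.716). Dsc1, below the limit in both populations, was at -1.88 without suprabasal array 2 (adjusted p = 0.0491) and at -0.84 without array 1 (adjusted p = 0.289).

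Against epidermis, Dsg2 was higher in each of the 4 coil and duct populations, and Pkp1 and Jup were lower in each. The 4 comparisons share the epidermis arrays. Dsg2 was higher by 3.71 in myoepithelial cells (SE 0.49, adjusted p = 0.000247, 13.1-fold), by 2.79 in luminal cells (adjusted p = 0.00141), by 2.51 in duct basal cells (adjusted p = 0.00427) and by 2.16 in duct suprabasal cells (adjusted p = 0.0063). Without duct suprabasal array 1 the last difference was 1.31 (adjusted p = 0.0151). Pkp1 was lower by 45.8-fold in luminal cells (-5.52, SE 0.27, adjusted p = 1.66e-06) and by 17.3-fold in myoepithelial cells (-4.11, adjusted p = 4.46e-06), while in duct suprabasal cells it was at -1.94 (adjusted p = 0.000474) and in duct basal cells at -1.11 (adjusted p = 0.0111). The last call was lost when either duct basal array or either epidermis array was left out, with adjusted p-values from 0.05 to 0.0736.

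Jup was lower than in epidermis by a similar amount in the 4 populations, with differences of -1.89 in myoepithelial, -1.80 in luminal, -1.82 in duct basal and -1.47 in duct suprabasal cells (SE 0.25 each) and adjusted p-values from 0.000242 to 0.00143. Dsc1 was at -4.82, -5.14, -3.68 and -3.78 in the same order, but its place among the tested genes came from its epidermis signal, so these differences are given as a description. The 2 epidermis arrays held 8 of 8 desmosome genes above the limit, against 6 or 7 on the other arrays. By its definition the limit leaves the same share of all probe sets above it on every array. It was lowest in epidermis, at 33.5 and 36, and highest on the duct suprabasal arrays, at 60.1 and 60.3. Dsc3 read 55 and 45 on the latter, above the epidermis limits, so this count is a description.

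The remaining genes separated luminal cells from epidermis more than the other populations. Among them Dsc3 passed the filter through epidermis and duct basal cells alone, so its differences are a description. In luminal cells Perp was at -2.67 (SE 0.20, adjusted p = 1.49e-05), Dsp at -1.59 (SE 0.20, adjusted p = 0.000242), Dsc2 at -1.99 (SE 0.42, adjusted p = 0.00385) and Dsc3 at -1.91 (SE 0.45, adjusted p = 0.00673). In myoepithelial cells Perp was at -0.94 (SE 0.20, adjusted p = 0.00415) and Dsc3 at -1.48 (SE 0.45, adjusted p = 0.0202), while Dsp (-0.42, adjusted p = 0.11) and Dsc2 (-0.38, adjusted p = 0.467) did not pass. In duct basal cells none of Dsp (-0.13), Perp (-0.32), Dsc2 (0.42) and Dsc3 (-0.54) passed. In duct suprabasal cells Dsc2 was higher than in epidermis by 1.52 (SE 0.42, adjusted p = 0.0157), and Dsp (-0.57, adjusted p = 0.0449) and Perp (-0.60, adjusted p = 0.0383) passed narrowly. The Dsc3 calls were lost in myoepithelial cells without myoepithelial array 2 (0.0983), epidermis array 1 (0.0762) or epidermis array 2 (0.0877), and in luminal cells without luminal array 1 (-1.31, adjusted p = 0.0546). The Dsc2 call in suprabasal cells was lost without suprabasal array 1 (0.76, adjusted p = 0.0582) or epidermis array 1 (0.0988), and with the 4 arrays alone (0.0671).

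In counts, 1 desmosome gene was higher and 7 lower in luminal cells than in epidermis, against a background of 26.1% higher and 19.2% lower. In myoepithelial cells 1 was higher and 5 lower, against 31.6% and 19.9%. In duct suprabasal cells 2 were higher and 5 lower, against 29.4% and 16.7%, and in duct basal cells 1 was higher and 3 lower, against 23% and 11%. Dsc1, which passed the filter through epidermis alone, is among the lower genes each time and adds no support to these counts. Nor does Dsc3, which passed it through epidermis and duct basal cells and is among the lower genes in luminal and myoepithelial cells. The medians of the 8 genes were -1.95, -1.21, -0.77 and -0.43 in these 4 comparisons. They include Dsc1 and Dsc3, which passed the filter through populations where they were high, so these medians are a description. All tested genes had medians of 0.16, 0.28, 0.26 and 0.24. Quantile normalization of the arrays, which brought the last 4 medians to -0.03, -0.02, -0.10 and 0.01, left Dsg2 higher and Pkp1 and Jup lower in each, past the threshold. Among the genes called, the share that was higher than in epidermis moved from 67.7% to 57.3% in duct basal cells. It moved from 63.8% to 48% in duct suprabasal, from 61.4% to 48.6% in myoepithelial and from 57.6% to 49.6% in luminal cells. Quantile normalization ended the duct suprabasal calls of Dsp (-0.09, adjusted p = 0.697) and Perp (-0.14, adjusted p = 0.553), and these were also lost without the filter or without the variance trend (adjusted p = 0.0616 to 0.0803) and with most single arrays left out: Dsp without any 1 array of the luminal, duct or epidermis populations (adjusted p = 0.0566 to 0.24), and Perp without any of the same arrays except suprabasal array 1 (0.0508 to 0.157).

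**Figure D3:**
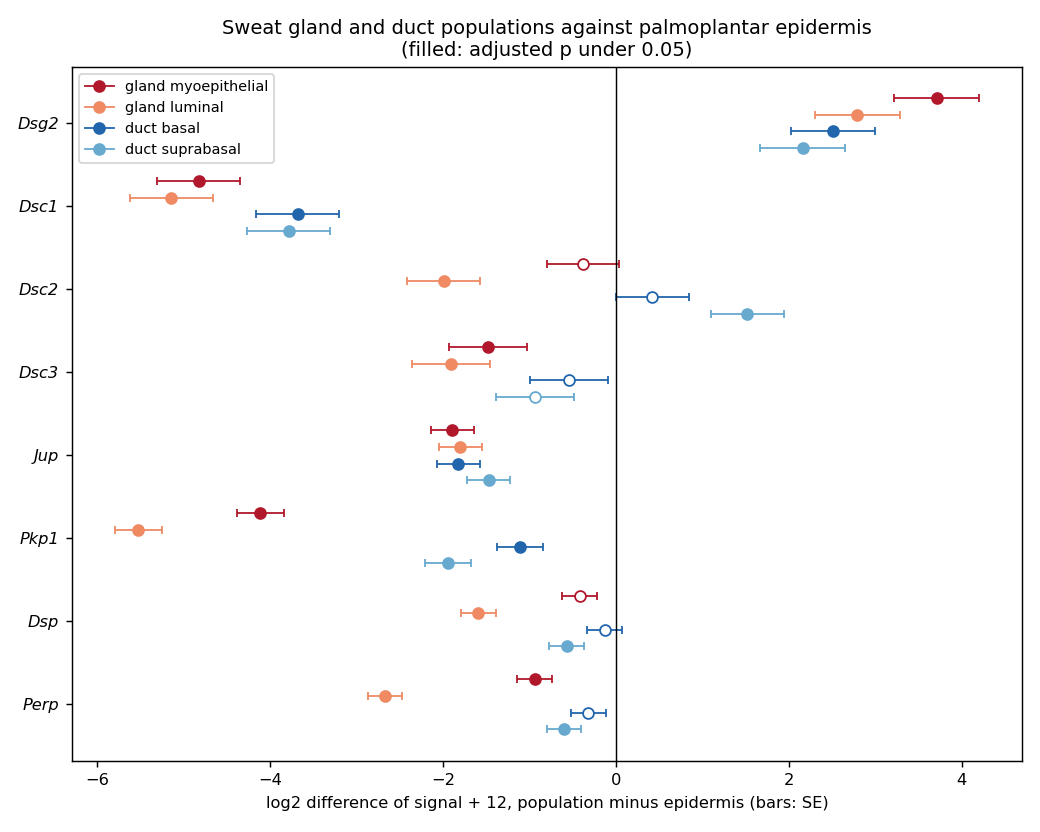
Log2 difference of signal + 12 between each coil or duct population and palmoplantar epidermis for the 8 desmosome genes. Points are limma estimates, bars are the SE, and filled points have an adjusted p under 0.05. Dsg2 is to the right of 0 in 4 of 4 populations, from 2.16 to 3.71, and Jup, Pkp1 and Dsc1 are to the left in all 4, with Pkp1 farther left in the coil (-4.11 and -5.52) than in the duct (-1.11 and -1.94).

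The last pairs set an outer layer against the inner layer of the other compartment. Duct basal cells were higher than luminal cells at 6 of the 8 genes and lower at 0, against 19.1% and 16.3% of tested genes. Pkp1 was 21.1-fold higher (4.40, SE 0.27, adjusted p = 9.77e-06), and Dsc2 was at 2.42 (adjusted p = 0.00227), Perp at 2.35 (adjusted p = 6.68e-05) and Dsp at 1.46 (adjusted p = 0.000722). Dsc1 (1.46, adjusted p = 0.042) and Dsc3 (1.37, adjusted p = 0.0394) also passed, with Dsc1 below the limit in both populations and Dsc3 in luminal cells. Dsc1 passed the filter through epidermis and Dsc3 through epidermis and duct basal cells, so both calls are a description. The Dsc1 call was lost without any 1 of the luminal, duct basal or epidermis arrays (adjusted p = 0.0743 to 0.149). The Dsc3 call was lost without luminal array 1 (0.77, adjusted p = 0.26) and without any 1 of the myoepithelial, duct basal or epidermis arrays (adjusted p = 0.0516 to 0.169). Dsg2 (-0.27) and Jup (-0.02) did not pass.

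Myoepithelial cells were lower than duct suprabasal cells at 2 genes, Pkp1 (-2.17, SE 0.27, adjusted p = 0.000796) and Dsc2 (-1.90, SE 0.42, adjusted p = 0.0142), against 9.27% of tested genes lower and 8.14% higher. Dsp stood at 0.15 and Perp at -0.35. Dsg2, at 1.55 (SE 0.49), had an adjusted p of 0.0581 and passed without duct suprabasal array 1 (2.40, adjusted p = 0.00165), while without array 2 it was at 0.70 (adjusted p = 0.189). The Dsc2 call was lost without myoepithelial array 1 (0.0673) or 2 (0.0624) and with the 4 arrays alone (0.123), and its value was -1.15 without duct suprabasal array 1 (adjusted p = 0.0239).

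Dsg2, Dsc2 and Dsp had more than 1 probe set, which gave a second reading of the same transcripts. Each of the 6 Dsg2 probe sets had its lowest mean in epidermis, and on 4 of the 6 both epidermis arrays were below the 8 others. When every probe set was tested on its own, among 14823, Dsg2 was higher than in epidermis with 6 of 6 probe sets in myoepithelial and in luminal cells and with 4 of 6 in duct basal and in duct suprabasal cells. The highest mean was in myoepithelial cells with 5 probe sets and in luminal cells with 1426153_a_at, which read 210.6 and 189.7 in myoepithelial and 340.7 and 284 in luminal cells. For duct basal against luminal cells 1426153_a_at alone passed (-2.25, SE 0.52, adjusted p = 0.01), where the set used gave -0.27. It read 94.6 and 31.3 in duct basal cells, the latter below the limit.

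The second Dsc2 probe set, 1421156_a_at, read 338.2 and 142.8 in duct suprabasal cells and was highest there, as was the set used, 1426911_at. It gave a difference of 0.29 between the coil layers (SE 0.49, adjusted p = 0.714), where the set used gave 1.61, and an interaction of 1.10 (SE 0.70, adjusted p = 0.336). Nor did it pass for luminal cells against epidermis (-0.28, adjusted p = 0.689) or for duct basal against luminal cells (1.37, adjusted p = 0.0619), where the set used gave -1.99 and 2.42. As with the set used, duct suprabasal cells were higher than epidermis (1.90, adjusted p = 0.013), and luminal (-2.18, adjusted p = 0.0226) and myoepithelial cells (-1.89, adjusted p = 0.0333) were lower than duct suprabasal cells. Its coil signals lay near the limit, at 68.1, 37.3, 28.7 and 53. For Dsp, 1435493_at was lowest in luminal cells, at 6736.8 and 5378.9, and separated the coil layers by 1.25 (SE 0.27, adjusted p = 0.00828), close to the 1.17 of 1435494_s_at. The third set, 1427610_at, was far dimmer and was highest in epidermis, at 153.5 and 232.7, with a coil layer difference of 0.28 (adjusted p = 0.762). With the mean of its 3 probe sets Dsp differed from epidermis by -0.93 (adjusted p = 0.0118) for duct basal and -0.83 (adjusted p = 0.012) for myoepithelial cells, where 1435494_s_at alone did not pass. For luminal against duct suprabasal cells neither 1435493_at (-0.75, adjusted p = 0.105) nor 1427610_at (-0.39, adjusted p = 0.701) passed, where 1435494_s_at gave -1.02. The mean of the probe sets gave 0.80 for duct basal against luminal cells, where 1435494_s_at gave 1.46, and -1.01 for duct suprabasal cells against epidermis, where it gave -0.57. Dsc1, Dsc3, Jup, Pkp1 and Perp had 1 probe set each.

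**Figure D4:**
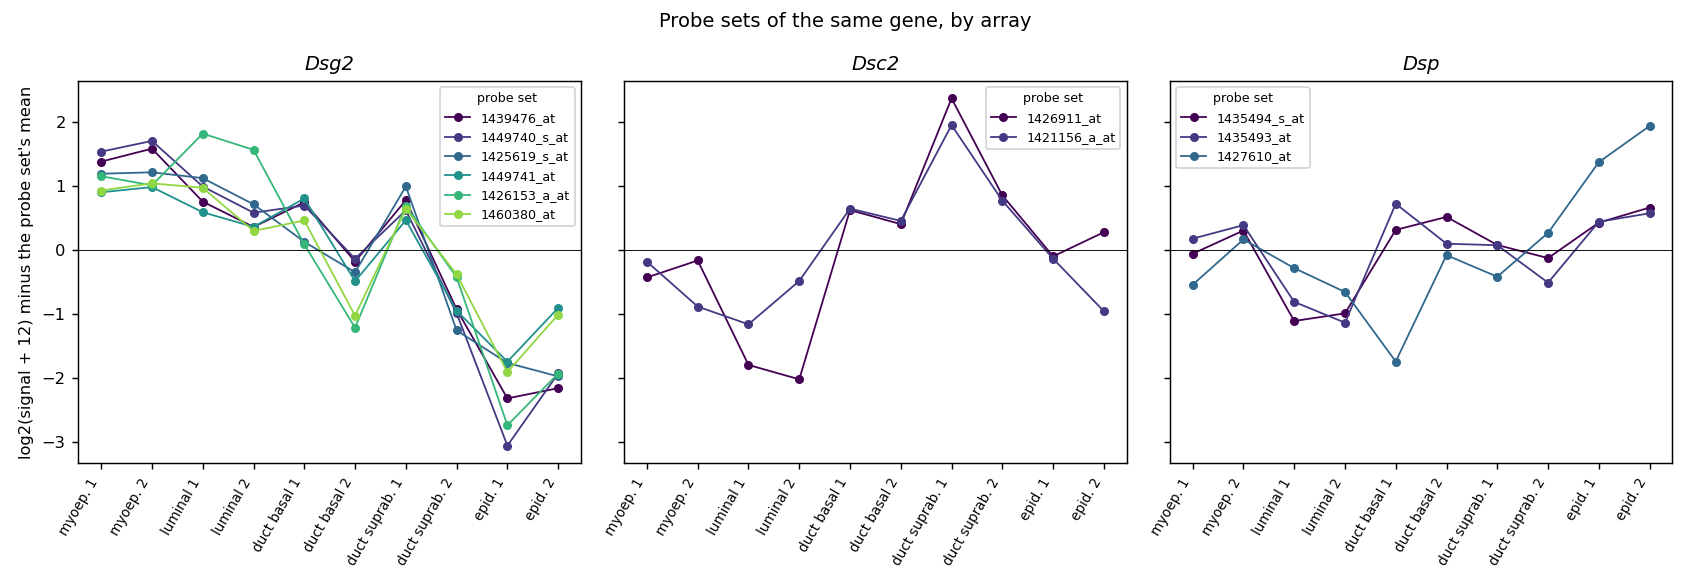
Log2(signal + 12) of each probe set minus its own mean over the 10 arrays, for the 3 desmosome genes with several probe sets. Each line is a probe set and each point an array. The 6 Dsg2 lines fall to their lowest means in epidermis, both Dsc2 lines peak on duct suprabasal array 1, and 1 of the 3 Dsp lines, 1427610_at, departs from the others.

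Of 11 further genes of the desmosome and the cornified junction, 6 were represented by a single-symbol probe set and tested: Pkp2, Pkp3, Pkp4, Evpl, Ppl and Cdsn. Dsg1a, Dsg1b, Dsg1c, Dsg3 and Dsg4 were not analysed here. Between the coil layers 2 of the 6 were higher in myoepithelial cells (Pkp3 and Pkp4) and 2 lower (Pkp2 and Evpl), where 16.5% and 14.5% of all tested genes were. Between the duct layers 0 were higher and 1 was lower in basal cells, Pkp4 at -0.90 (SE 0.26, adjusted p = 0.0479), against 7.97% and 8.39%. Against epidermis, 2 were higher and 3 lower in luminal cells (background 26.1% and 19.2%), 1 higher and 3 lower in myoepithelial cells (31.6% and 19.9%), 2 higher and 1 lower in duct suprabasal cells (29.4% and 16.7%), and 1 higher and 1 lower in duct basal cells (23% and 11%). With 6 genes such counts are a description.

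The 4 plakophilin genes had different profiles. Pkp2 encodes the plakophilin of simple epithelia and heart. It read 1689.3 and 1520.7 in luminal cells, 961 and 245 in duct suprabasal cells, 135.9 and 54.6 on the duct basal arrays, 288.4 and 2.2 in myoepithelial cells, and 3.8 and 3.4 in epidermis. Luminal arrays were above all others, and both epidermis arrays and myoepithelial array 2 were below the limit. Its difference from epidermis passed in luminal cells (6.69, SE 1.18, adjusted p = 0.00146) and duct suprabasal cells (5, adjusted p = 0.00765), sizes that depend on the constant added since epidermis was below the limit. With the mean of the probe sets of Pkp2 these were 4.06 and 3.33, and the coil layer difference was -2.28 rather than -4.63. Between the coil layers it was at -4.63 (SE 1.18, adjusted p = 0.0161), which became -2.43 without myoepithelial array 2 (adjusted p = 0.0593) and was lost without luminal array 1 (0.0774) or 2 (0.0713).

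Pkp3, a plakophilin found in most layers of stratified epithelia, read 3079.6 and 3734.2 in epidermis, 1117.6 and 1077.8 in myoepithelial cells, 806.4 and 1940.1 in duct basal cells, 451.9 and 629.1 in duct suprabasal cells, and 356.9 and 462 in luminal cells. Both epidermis arrays were above all others, as for Pkp1. Its difference from epidermis was -3.02 in luminal cells (SE 0.36, adjusted p = 0.000181), -2.64 in duct suprabasal cells (adjusted p = 0.000505) and -1.62 in myoepithelial cells (adjusted p = 0.00514). In duct basal cells it was at -1.43 (adjusted p = 0.0152), lost without duct basal array 1 (-0.80, adjusted p = 0.08), epidermis array 1 (0.0571) or epidermis array 2 (0.099). Its coil layer difference of 1.41 (SE 0.36, adjusted p = 0.0174) was lost without any 1 of the 4 coil arrays (adjusted p = 0.0514 to 0.106) and with the mean of its probe sets (adjusted p = 0.24).

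Pkp4 encodes a relative of the plakophilins that is found at desmosomes and adherens junctions. It read 5496.1 and 5605.4 in myoepithelial cells, 2583 and 2164.3 in luminal cells, 2123.2 and 1622.5 in duct suprabasal cells, 1282.8 and 760.2 in duct basal cells, and 396.6 and 501.1 in epidermis. The order resembled that of Dsg2, with myoepithelial arrays above and epidermis arrays below all others. It was higher than in epidermis by 3.60 in myoepithelial cells (SE 0.26, adjusted p = 9.46e-06), 2.38 in luminal cells (adjusted p = 0.000113), 2.03 in duct suprabasal cells (adjusted p = 0.000377) and 1.13 in duct basal cells (adjusted p = 0.0105). The last was lost without duct basal array 1 (0.75, adjusted p = 0.0743) or epidermis array 1 (0.085).

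In the coil Pkp4 was higher in the outer layer by 1.23 (SE 0.26, adjusted p = 0.00774) and in the duct lower in the outer layer, and this interaction was 2.13 (SE 0.37, adjusted p = 0.00688). The coil call was lost without luminal array 2 (1.10, adjusted p = 0.0614). The duct call was lost without any 1 array except duct basal array 1 and duct suprabasal array 2 (adjusted p = 0.067 to 0.264), and its value was -0.53 without duct basal array 2.

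**Figure D5:**
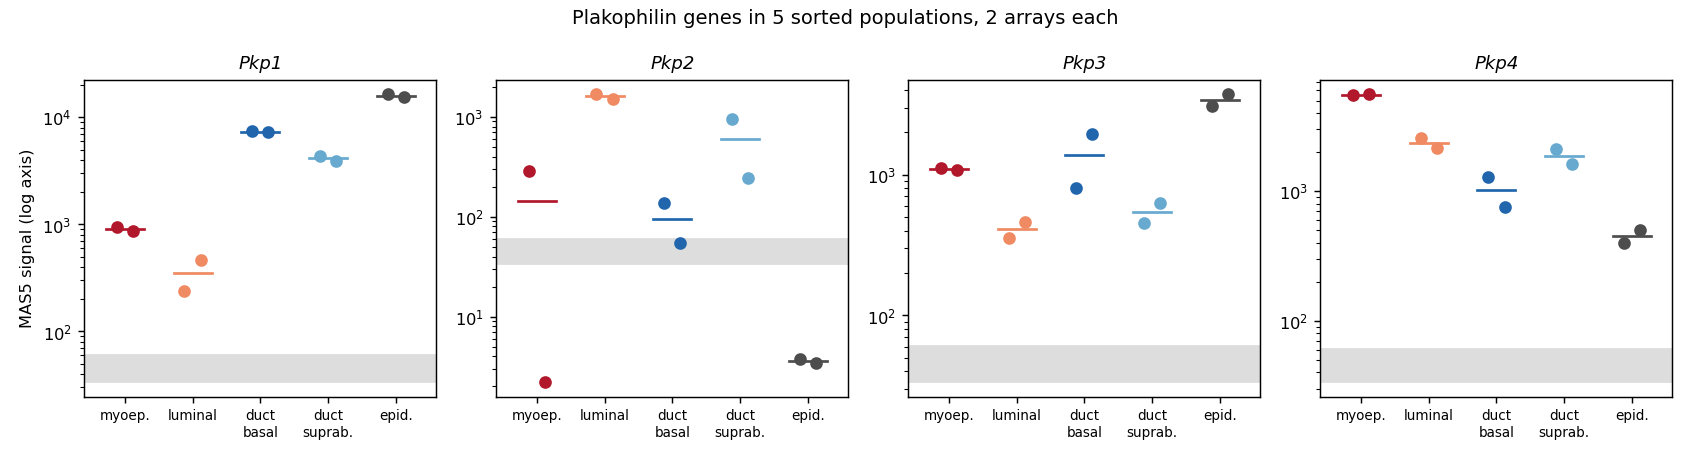
MAS5 signal (log axis, separate for each gene) of the 4 plakophilin genes on each array, grouped by population. Points are arrays, lines the mean of 2 arrays, and the grey band spans the 40th percentiles of the arrays. Pkp1 and Pkp3 are highest in epidermis, Pkp2 in luminal cells and Pkp4 in myoepithelial cells.

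The plakins envoplakin (Evpl) and periplakin (Ppl), which link desmosomes to the cornified envelope, were both lower in the coil than in epidermis. Evpl read 1030.7 and 1099.7 in epidermis, 320.2 to 637.1 on the 4 duct arrays, 171 and 161.7 in luminal cells, and 77.2 and 3.8 in myoepithelial cells. It differed from epidermis by -4.84 in myoepithelial cells (SE 0.67, adjusted p = 0.000327) and -2.59 in luminal cells (adjusted p = 0.0109), the latter lost without either luminal or either epidermis array (adjusted p = 0.05 to 0.0611). Its difference of -2.25 between the coil layers (SE 0.67, adjusted p = 0.0304) was -1 without myoepithelial array 2 (adjusted p = 0.14) and -3.50 without myoepithelial array 1, and was also lost without any 1 luminal or epidermis array (adjusted p = 0.0534 to 0.117). Ppl differed by -1.19 in myoepithelial cells (SE 0.28, adjusted p = 0.00655) and -1.22 in luminal cells (adjusted p = 0.0063). Both Ppl calls were lost without epidermis array 2 (0.0554 and 0.0563), the luminal one also without luminal array 2 (-0.87, adjusted p = 0.0572). Cdsn, corneodesmosin of the cornified layer, was between 16.2 and 99.4 on all arrays and passed in none of these comparisons.

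Adherens junctions, which join cells through classical cadherins and actin, were followed from 8 of 9 listed genes. Between the coil layers 4 were higher in myoepithelial cells, 1 was lower, and the median was 0.77, against 16.5% higher, 14.5% lower and a median of 0.08 over all tested genes. Cdh3, P-cadherin of basal cells, differed by 5.32 (SE 0.59, adjusted p = 0.000357), with 1056.3 and 750 in myoepithelial and 9.5 and 11.6 in luminal cells. The luminal signals were below the limit, so the size depends on the constant added, from 4.03 with 47 to 6.28 with 1. Vcl, the actin linker vinculin, differed by 3.52 (SE 0.27, adjusted p = 5.57e-05) and by 1.95 with the mean of its probe sets. Nectin4, a nectin of epithelial contacts, was the gene that was lower, at -2.25 (SE 0.43, adjusted p = 0.00454). Against epidermis 4 were higher and 1 lower in myoepithelial cells, 0 and 2 in luminal cells, 2 and 1 in duct basal cells, and 2 and 1 in duct suprabasal cells, where the median of the list was 0.49, -0.48, 0.25 and 0.23. All tested genes had 31.6% higher and 19.9% lower with a median of 0.28 in myoepithelial cells, 26.1%, 19.2% and 0.16 in luminal cells, 23%, 11% and 0.24 in duct basal cells, and 29.4%, 16.7% and 0.26 in duct suprabasal cells.

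Of the 12 keratins that desmosomes can anchor, 12 were tested. In the coil 5 were higher in the outer layer and 3 lower, against 16.5% and 14.5% of all tested genes, and in the duct 3 were higher and 2 lower, against 7.97% and 8.39%. Krt17 (5.75, SE 0.37, adjusted p = 2.32e-05) and Krt5 (5.55, SE 0.51, adjusted p = 0.000134) were higher in myoepithelial cells and Krt19 (-4.02, SE 0.87, adjusted p = 0.00774), a simple epithelial keratin, in luminal cells. Krt19 read 2426.5 and 255.2 on the myoepithelial arrays, and its difference was -2.42 without array 2 (adjusted p = 0.0277) and -5.61 without array 1 (adjusted p = 0.000548). Luminal cells were lower than epidermis at 7 of the 12 and higher at 3, against 19.2% and 26.1% of all tested genes. The 3 were the simple epithelial keratins Krt8 (9.67, SE 0.47, adjusted p = 1.66e-06), Krt18 and Krt19, which were below the limit in epidermis, so that the sizes depend on the constant added.

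Of 11 regulators and proteases of desmosomes 6 were tested. Trp63, which encodes p63, a transcription factor of stratified epithelia, read 3806.9 and 4737.8 in myoepithelial, 38.1 and 55 in luminal, 3631.4 and 3004.3 in duct basal, 504.8 and 473.6 in duct suprabasal cells, and 2169.6 and 2534.2 in epidermis. It was higher in the outer layer of the coil by 6.20 (SE 0.22, adjusted p = 2.4e-06) and of the duct by 2.73 (SE 0.22, adjusted p = 0.000378), which were 2.97 and 1.24 with the mean of its probe sets. In the coil 3 of the 6 were higher in the outer layer and 1 lower, against 16.5% and 14.5% of all tested genes, and in the duct 1 was higher and 1 lower, against 7.97% and 8.39%. The lower gene was in both cases Grhl1, a grainyhead factor, at -2.24 (adjusted p = 0.00633) and -2.20 (adjusted p = 0.0149). Grhl1 lost its coil call without myoepithelial array 2 and its duct call without duct basal array 1.

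Profiles most like those of the desmosome genes were sought among 3142 genes whose population means spanned at least 4-fold, by Pearson's r of log2 signal over the 10 arrays, which share 5 populations. Pkp1 was closest to Krt1 (r = 0.99), a keratin of spinous cells, and Sdc1 (0.986), and Dsc1 to Lor (0.992), the cornified envelope protein loricrin, and Sprr1b (0.98). Jup was closest to Tgm1 (0.965), the transglutaminase that cross-links that envelope, and Serpina12 (0.964), and Dsc2 to Scel (0.933), sciellin, and Nfe2l3 (0.915). Dsg2 was closest to Patj (0.986), a tight junction scaffold, and Atp13a3 (0.984). Dsc3 was closest to Pkp1 (0.94) and Grip1 (0.935), Dsp to Dynll1 (0.973) and Perp (0.97), and Perp to Tspan6 (0.974) and Clip4 (0.972). Among the 8 genes themselves, Dsg2 had a negative r with each of the 7 others, from -0.12 with Dsc2 to -0.85 with Dsc1, and Dsp and Perp had the highest r. These values are descriptions of 10 arrays.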

How the data were processed

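Total RNA of 5 sorted populations from mouse paw pads was measured on 10 Affymetrix arrays, 2 for each. Trizol served to extract the RNA and 2 ug of it went into biotinylated cRNA, per the labels' protocols. The deposited values are signal intensity, made by the authors with MAS5 per the submitters' processing notes (version, settings and annotation are not given in the sources used here). They ran from 0.1 to 72213.2, and the 2% trimmed mean of each array was 500.

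Of 22690 probe sets, 64 controls were left out, 20380 had 1 gene symbol in the platform table, 691 several and 1555 none. Entrez identifiers of 20351 were found in a RefSeq table, which changed 0 symbols. A gene was read from the probe set of highest mean signal. Signals became log2(signal + 12), with 12 taken from the 20th percentile of the values and nothing else normalized. Testing was limited to the 9320 genes that exceeded an array's 40th percentile on 2 or more arrays. limma 3.58.1 in R 4.3.3 fitted 1 model to the 10 arrays (5 residual degrees of freedom, variance trend), with Benjamini-Hochberg adjustment over all tested genes and a threshold of 0.05. The fit was checked on simulated data. Where comparisons have a population in common, they use the same arrays. The labels give no animals, so p-values measure only the spread between these arrays, and their number limits the precision.

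The 8 genes, the other lists and the tests were chosen with earlier results of these data known. All 8 genes are named. From each other list, up to 4 genes a direction qualified by an adjusted p under 0.05, at least 2-fold and non-overlapping arrays, and others are named to describe a list. Alike genes are the 2 with the highest Pearson correlation. Alternatives were adding 1 or 47 before the logarithm, quantile normalization, a filter at the 60th percentile or none, the mean of a gene's probe sets or each probe set alone, no variance trend, a replicate block, 4 arrays only, and arrays left out singly or as a pair. Figures were drawn with matplotlib 3.10.9.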

Additional observations from a re-analysis of the deposited data

Results flagged for a closer look

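For Dsc2 the outer minus inner difference was 1.61 in the coil and -1.09 in the duct with the probe set used. The interaction of 2.70 on the log2 scale passed the limma test (adjusted p = 0.017). With this probe set both outer arrays were above both inner arrays in the coil and below them in the duct. The second probe set gave an interaction of 1.10 (adjusted p = 0.336), and the mean of the probe sets 1.90 (adjusted p = 0.0508). The call was also lost without myoepithelial array 2, luminal array 2 or duct basal array 2. The duct difference did not pass on its own (adjusted p = 0.107) and ranged from -1.85 to -0.34 over the alternatives. Perp differed in the same contrast, with an interaction of 1.45 (adjusted p = 0.0118) between 1.73 in the coil and 0.28 in the duct. Among the other genes of the desmosome, Pkp4 had an interaction of 2.13 (adjusted p = 0.00688), from 1.23 in the coil and -0.90 in the duct.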

How the results depend on the processing

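Among values of single desmosome genes, 832 of 861 kept their side of the threshold under the alternatives other than left-out arrays, 20 lost it and 9 gained it, and with arrays left out 899 of 968 kept it, 50 lost it and 19 gained it. No called value turned its sign. Of the values that did not pass either way, 8 and 23 turned theirs, with sizes of at most 0.42 and 0.63 in the reported fit. With quantile normalization these included Perp between the duct layers (from 0.28 to -0.15) and Dsp between the outer layers (from -0.29 to 0.10) and in myoepithelial cells against epidermis (from -0.42 to 0.06). Without duct suprabasal array 2 they included Dsg2 between the duct layers (from 0.36 to -0.49) and the inner layers (from 0.63 to -0.22). Among 32 genes of the other lists 146 of 7338 values turned their sign with no call on either side, and 1 with a call: Ctnnb1, myoepithelial minus epidermis, went from 0.65 to -0.17 with the mean of its probe sets.

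Leaving out 1 array at a time gave from 3 to 5 desmosome genes that differed between the coil layers, 0 to 1 between the duct layers, 1 to 4 between the outer layers, 3 to 5 between the inner layers, 3 to 4 for duct basal, 4 to 7 for duct suprabasal, 5 to 6 for myoepithelial and 7 to 8 for luminal cells against epidermis, 1 to 3 for myoepithelial against duct suprabasal cells, 4 to 6 for duct basal against luminal cells, 1 to 2 in the interaction, and 7 to 8 in the F test. With both myoepithelial array 1 and duct suprabasal array 2 left out, 1 gene differed between the duct layers. Between the outer layers 2 differed under this setting, under a filter at the 60th percentile, with 4 arrays only and with the replicate block. With 4 arrays only, 1 gene differed between the inner layers and 1 between myoepithelial and duct suprabasal cells, and with the mean of a gene's probe sets 1 passed the interaction.

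Arrays of the same number correlated by 0.03 to 0.36 in their deviations, over 0.1 in the 6 pairs among coil and duct populations (0.12 to 0.36) and under it in the 4 pairs with epidermis (0.03 to 0.09). The labels name no animal or batch behind the numbers, and the numbers were not taken as pairs. With the replicate block, calls over all genes rose from 2896 to 3289 between the coil layers and from 1525 to 2041 between the duct layers. Among desmosome genes it changed 2 calls, Perp between the outer layers (-0.62, adjusted p = 0.0425) and Dsg2 between myoepithelial and duct suprabasal cells (1.55, adjusted p = 0.0279), both gained.

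Quantile normalization moved the median interaction of all genes from 0.05 to -0.13 and the share of positive values among its calls from 62.8% to 51%, and the Dsp interaction then passed (1.30, adjusted p = 0.0116). Perp in myoepithelial cells against epidermis became -0.51. With 47 added before the logarithm, Dsc3 against epidermis was -0.98 in myoepithelial and -1.17 in luminal cells, and with the mean of its probe sets Dsc2 in luminal cells was -1.13. The cause of these changes was not tested. Signals under the 40th percentile, those of Dsc1 outside epidermis and of Dsc3 in 3 populations, limit what can be read from these genes.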
